A study of Mus musculus with 4 samples.

Results

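The cells studied here were kept by a rule on 6 marker genes of lung pericytes among sorted cells of MMTV-neu mice. Their working name was pericyte and smooth muscle-like cells; the data gave pericyte genes in most lung members and in 3 of the 8 mammary ones, and smooth muscle genes in few. Barcodes counted as called cells when they reached 500 UMIs (a UMI tags 1 captured RNA molecule) and 250 genes, and when mitochondrially encoded genes gave no more than 20% of the UMIs. A called cell was kept as a member when it held at least 3 UMIs summed over Cox4i2, Higd1b, Gucy1b3, Gucy1a3, Postn and Ndufa4l2. It also had to hold more of these than of 4 endothelial genes (Cldn5, Ramp2, Egfl7, Cdh5) and more than of 3 alveolar type 1 genes (Ager, Cldn18, Hopx). The rule kept 56 of the 1713 called cells of 3 libraries: 23 of 185 in the early lung, 25 of 210 in the late lung and 8 of 1318 in the early lesion.

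MMTV-neu mice carry the neu (HER2, Erbb2) transgene under the mouse mammary tumor virus promoter, which is active in mammary epithelium, here on the FvB strain. The early lung library came from lungs of mice aged 14 to 18 weeks without a palpable tumor, and the late lung library from lungs of mice older than 20 weeks that bore primary tumors. The early lesion library came from mammary glands at the early age, and a primary tumor library from breast tumors at the late age. In all 4, dissociated tissue was sorted for cells that lacked CD45 and carried HER2, and the submitters label them breast cancer cells. Every group has 1 library, and the number of mice behind each is not given in the sources used here. No comparison between groups has a replicate check, no test was made, and all intervals are exact 95% intervals for counting error only.

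Pericytes are mural cells that wrap capillaries, share the basement membrane with the endothelium and depend on platelet-derived growth factor signalling through Pdgfrb. Vascular smooth muscle cells form the contractile wall of larger vessels and are defined by Acta2, Tagln, Myh11 and Cnn1. Soluble guanylate cyclase, built from the Gucy1a and Gucy1b subunits, makes cyclic GMP in mural cells in response to nitric oxide. In lung pericytes the respiratory chain proteins Cox4i2, Ndufa4l2 and Higd1b, relatives of widely expressed subunits or assembly factors, are used as markers.

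The marker genes are spread over 4 chromosomes (mm10, GENCODE positions). Cox4i2 lies at chr2:152754173-152765037 and Higd1b at chr11:102835849-102838040, both on the plus strand. Ndufa4l2 lies at chr10:127514967-127517154 and Postn, which encodes the matrix protein periostin, at chr3:54361109-54391037, again on the plus strand. The cyclase genes are next to each other on the minus strand, Gucy1b3 (RefSeq name Gucy1b1) at chr3:82032006-82074689 and Gucy1a3 (RefSeq name Gucy1a1) at chr3:82092427-82145789. Promoter windows of 300 bases, 250 before and 50 after a transcript start, were held for 3 of the 6 markers (RefSeq, GRCm38.p6). They are shown because the neighbouring cyclase genes are both markers, and because Postn alone brought 5 of the 8 early lesion cells under the rule. Capitals mark the 4 motifs searched, on both strands: TGGGAA, the core bound by the Notch factor RBPJ; CCAAT, the element bound by NF-Y; GGGCGG, the core bound by Sp factors; and TATAAA, the element bound by TBP. A motif on the reverse strand appears as its reverse complement in the line, and overlapping matches were allowed. The windows shown are chr3:82074662-82074961 for Gucy1b1, chr3:82145601-82145900 and chr3:82145024-82145323 for the 2 starts of Gucy1a1, all on the minus strand, and chr3:54360857-54361156 on the plus strand for Postn, each written 5′ to 3′.
Gucy1b1: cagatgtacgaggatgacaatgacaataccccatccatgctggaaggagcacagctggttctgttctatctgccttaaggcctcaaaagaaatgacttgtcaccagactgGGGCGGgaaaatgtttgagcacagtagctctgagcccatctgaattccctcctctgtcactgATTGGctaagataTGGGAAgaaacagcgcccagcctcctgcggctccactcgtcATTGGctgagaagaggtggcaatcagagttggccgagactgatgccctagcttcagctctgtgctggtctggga
Gucy1a1 upstream start: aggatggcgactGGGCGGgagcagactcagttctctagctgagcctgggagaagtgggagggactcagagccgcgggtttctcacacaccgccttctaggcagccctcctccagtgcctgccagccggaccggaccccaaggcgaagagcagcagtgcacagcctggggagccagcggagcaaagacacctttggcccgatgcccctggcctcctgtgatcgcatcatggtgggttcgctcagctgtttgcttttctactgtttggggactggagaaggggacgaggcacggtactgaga
Gucy1a1 downstream start: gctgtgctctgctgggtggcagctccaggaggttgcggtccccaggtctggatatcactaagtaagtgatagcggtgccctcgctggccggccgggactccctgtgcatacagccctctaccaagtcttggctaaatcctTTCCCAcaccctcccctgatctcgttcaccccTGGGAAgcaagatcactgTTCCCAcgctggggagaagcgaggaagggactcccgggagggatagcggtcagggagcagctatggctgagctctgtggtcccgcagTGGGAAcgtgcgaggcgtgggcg
Postn: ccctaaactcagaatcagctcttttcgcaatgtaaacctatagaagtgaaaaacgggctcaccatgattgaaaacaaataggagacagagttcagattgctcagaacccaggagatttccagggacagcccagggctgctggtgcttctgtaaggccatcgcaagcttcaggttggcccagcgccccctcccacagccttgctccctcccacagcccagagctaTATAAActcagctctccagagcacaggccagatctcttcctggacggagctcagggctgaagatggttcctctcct
The Gucy1b1 window holds 1 RBPJ core, 2 NF-Y elements and 1 Sp core, the upstream Gucy1a1 window 1 Sp core and the downstream one 4 RBPJ cores. The Postn window shown, at the start nearer the annotated gene, holds 1 TATA element, 26 bases before the start; the window of its other start, chr3:54359017-54359316, is not shown and holds 1 NF-Y element and no TATA element. Of all 32851 promoter windows of the same length, 25.6% hold the RBPJ core, 37.4% the NF-Y element, 35.7% the Sp core and 13.6% the TATA element. A match is a description of the letters and no evidence of a bound factor.

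By library, members made up 12.4% of the early lung's called cells (8.05% to 18.1%), 11.9% of the late lung's (7.85% to 17.1%) and 0.607% of the early lesion's (0.262% to 1.19%). The lung shares differed by less than their counting intervals. The same rule kept 0 of 434 called cells of the primary tumor, and the exact interval allows a share of up to 0.846%. Those 434 cells held 2 marker UMIs in all. The CD45 and HER2 sort stands between these shares and the makeup of the tissue. No called barcode was shared between libraries. The median depth of members was 655 UMIs (early lung), 817 (late lung) and 1730.5 (early lesion), against 780.5, 807 and 2361 in the other called cells. Their median mitochondrial share was 5.22%, 4.08% and 2.49%, against 2.84%, 2.5% and 0.125% in the others. In the late lung, 8 other cells above 10000 UMIs held 45.1% of the UMIs of all the others.

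The markers separated the lung members widely from the remaining cells. Early lung members held a median of 16 marker UMIs (lowest 5, highest 52) and those of the late lung 14 (3 to 62), while 142 of 162 and 149 of 185 other cells held none. All 6 marker genes were found together in 6 early and 8 late lung members, and at least 4 of them in 19 and 19. Both cyclase subunits were common: Gucy1b3 had 56 UMIs in 16 of 23 early and 94 in 21 of 25 late lung members, and Gucy1a3 46 in 17 and 55 in 16. Since these counts chose the cells, they are a description. At the edge of the rule stood 2 late lung and 4 early lesion cells with exactly 3 marker UMIs. Just outside, with 2 marker UMIs and all other conditions met, stood 1 cell in each of these libraries, and the late lung one held 10 UMIs of other pericyte genes. A further 1 early and 4 late lung cells had 3 or more marker UMIs but held as many or more endothelial or alveolar type 1 UMIs.

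**Figure D1:**
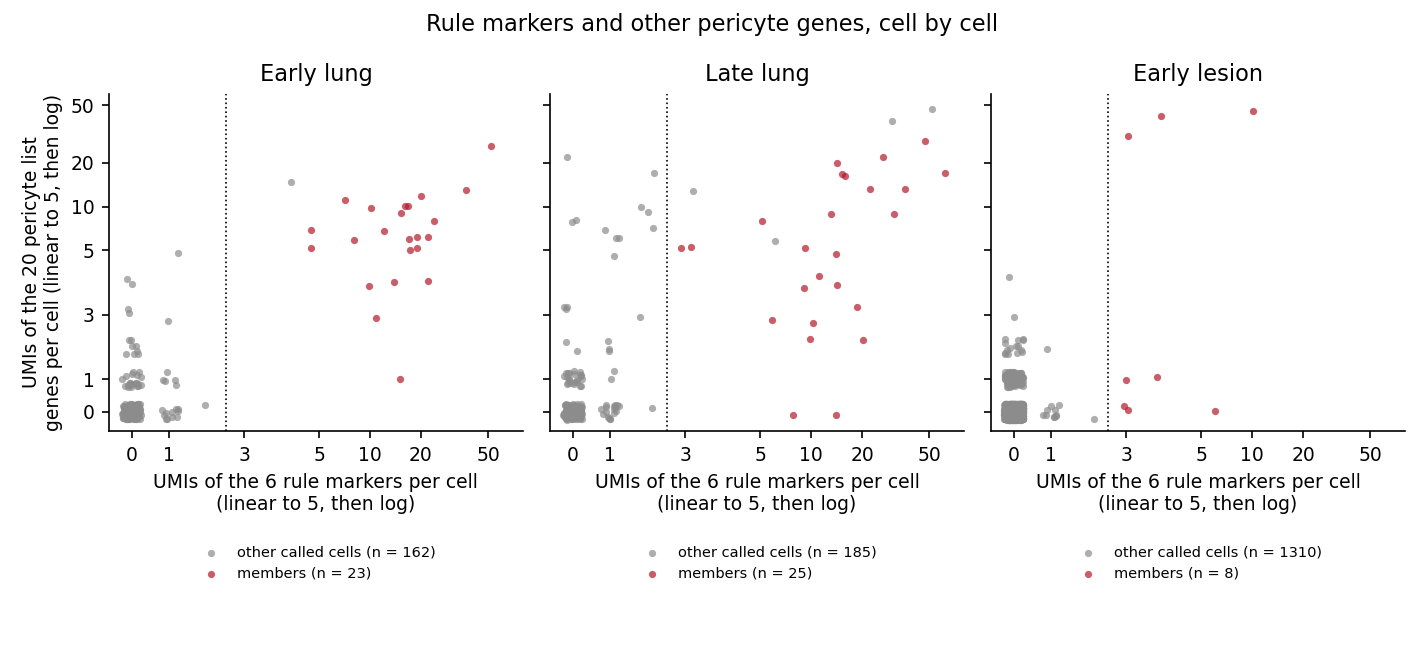
Each point is 1 called cell, with UMIs of the 6 rule markers on the x axis and UMIs of 20 other pericyte genes on the y axis, both linear to 5 and then logarithmic, jittered slightly. At least 3 UMIs of the other pericyte genes are held by 22 of 23 early and 21 of 25 late lung members. Only 3 of the 8 early lesion members hold more than 1.

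The lung members carried pericyte genes that the rule did not use. A list of 20 such genes summed to 9595 CPM (counts per 1000000 UMIs of the summed cells) in early lung members (8237 to 11112) against 427 CPM in other cells, and to 8280 CPM in late lung members (7215 to 9458) against 666 CPM. Free RNA, measured in barcodes with 1 to 50 UMIs, held the list at 1223 and 1418 CPM. All 23 early and 23 of 25 late lung members held at least 1 UMI of it, with medians of 6 and 5 and highest values of 26 and 28. The late lung members without any held 14 and 8 marker UMIs, so the level of these genes varied widely from cell to cell. Ednrb and Steap4 of the list had 0 UMIs in the members of both lungs. Ratios below are log2 ratios of CPM, members over other called cells of the same library, with 0.5 counts added to each sum, given for genes with at least 20 counts over both sums. Across all 1659 such genes of the early lung, 16% were at least 2-fold higher and 26.2% at least 2-fold lower in members. Across the 3376 of the late lung these shares were 20% and 26.5%. Of the pericyte list, 5 of 5 genes with enough counts were at least 2-fold higher in the early lung, and 7 of 8 in the late lung, with 1 lower. Without cells above 10000 UMIs the late lung count was 3, but only 1909 genes in all then had enough counts, 369 of them higher. How many list genes were among the 1909 is not given here, so the 3 cannot be set against the 8. A gene could also pass the count minimum through the members alone, as Pdgfrb did in the early lung. The rule and these genes were read in the same cells, so the counts describe the members and are no test of them.

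Pdgfrb, the receptor through which endothelial PDGF-B recruits pericytes, had 27 UMIs in 13 of 23 early lung members and 1 UMI in the 162 other cells. In the late lung it had 19 UMIs in 9 of 25 members and 14 in 3 of 185 others. These are log2 ratios of 7.52 (5.47 to 13.43) and 4.31 (3.25 to 5.43), and no single member held more than 6 and 4 of the UMIs. Lhfp, a membrane protein gene found in mural cells, had 38 and 74 UMIs in members and ratios of 3.18 (2.5 to 3.84) and 3.8 (3.33 to 4.28). With every cell thinned to 500 UMIs, 43.5% and 68.0% of members held Lhfp against 8.64% and 10.8% of the others; unthinned, it was in 16 of 23 and 21 of 25 members. Des, the intermediate filament desmin, had 17 and 24 UMIs in members and 6 and 21 in the others. Mcam, an adhesion receptor of vessel cells, had 12 UMIs in 10 members of each lung, with ratios of 3.88 and 2.59.

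Some pericyte genes had too few counts for a ratio. Notch3, the Notch receptor of mural cells, had 12 and 9 UMIs in members and 2 and 10 in the others. Vtn (vitronectin) had 10 and 12 against 1 and 3, and the cation channel gene Trpc6 had 2 and 11 against 0 and 1. Rgs5, Kcnj8, Abcc9 and Cspg4 are the usual pericyte markers of brain and many other organs. Rgs5 had 7 UMIs in 2 early lung members and 6 in 4 late ones, and 6 of the early 7 lay in 1 cell. Kcnj8 had 0 and 1 UMIs, Abcc9 1 and 3 and Cspg4 0 and 4. At these depths most lung members therefore showed Pdgfrb, Lhfp or the marker genes without any of these 4.

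Smooth muscle genes, the other side of the working name, were scarce in the lung members. Acta2, Tagln, Myh11, Cnn1 and Actg2 together had 8 UMIs over the 23 early lung members, in 5 cells. They had 40 UMIs over the 25 late lung members, of which 32 lay in 1 cell with 1187 UMIs that held 18 Acta2 and 11 Tagln UMIs and only 3 marker UMIs. Without that cell the remaining 24 held 8. Myocd, the smooth muscle coactivator, had 0 UMIs in members of every library. A wider list of 20 contractile genes stood at 7169 CPM (6002 to 8496) and 7059 CPM (6078 to 8153) in members against 3527 and 3385 CPM in others. In the late lung, 64 of the 185 member UMIs of this list lay in the cell with 18 Acta2 UMIs. Of the list's genes with enough counts, 3 of 5 in the early and 7 of 9 in the late lung were at least 2-fold higher. Without that 1 cell it was 6 in the late lung. Myl9, a myosin regulatory light chain, had ratios of 3.59 (2.20 to 5.06) and 4.04 (3.21 to 4.88). Cald1, the actin-binding caldesmon, had 3.22 and 1.14, whereas Myl6, a light chain of most cell types, had -0.35 and -0.13 with intervals that include 0. The lung members as a group are therefore described as pericyte-like, apart from this cell and 1 other late lung cell described below. For the late lung members without any UMI of the pericyte list, that name rests on the rule markers alone.

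Airway, endothelial and alveolar type 1 genes stood below the free RNA in the members. Scgb1a1, the club cell secretory protein, was at 5390 and 5151 CPM in members, with at least 1 UMI in 23 of 23 and 24 of 25, against 45865 and 75474 CPM in free RNA. Endothelial genes outside the rule were at 1833 and 1030 CPM against 3382 and 5124 CPM in other cells and 2600 and 3263 CPM in free RNA. Alveolar type 1 genes outside the rule were at 1348 and 1259 CPM against 4413 and 3730 CPM in free RNA. At least 1 UMI of the rule's endothelial genes was found in 3 early and 6 late lung members, and of its alveolar type 1 genes in 8 and 11. Doublets were not called, and their part in the results was not tested. The fibroblast list was mixed, at 3234 and 2747 CPM in members against 4456 and 2641 CPM in others and 4396 and 2133 CPM in free RNA, with 4 of 9 genes at least 2-fold higher and 5 lower in the early lung and 4 of 10 higher and 3 lower in the late lung. Col1a1 was higher (ratios of 2.55 and 4.55), while Mfap4 had 0 UMIs in members of both lungs against 95 and 48 in the others. Pdgfra, the receptor of lung fibroblasts, also had 0 in both.

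**Figure D2:**
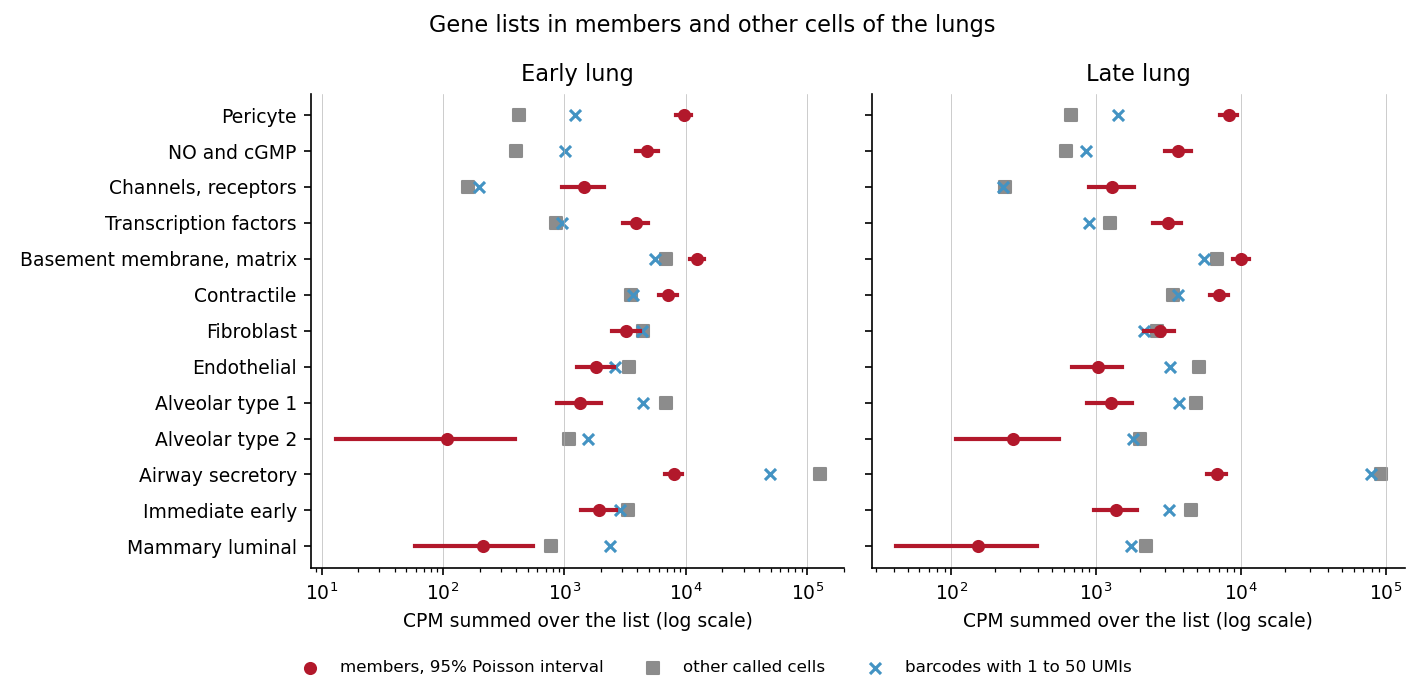
Summed CPM of 13 gene lists on a log axis, for members (circles with 95% Poisson intervals), other called cells (squares) and barcodes with 1 to 50 UMIs (crosses), in each lung library. Pericyte, cyclic GMP, channel and transcription factor genes lie to the right of both references in each lung, and airway and alveolar genes to the left.

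UMIs of Erbb2 were not found in the members, and mammary genes were near absent from the lung members. Erbb2 had 0 UMIs in all 56 members, and Ptprc, which encodes CD45, also 0; the other called cells of the 3 libraries held 3, 3 and 30 Erbb2 UMIs in the order early lung, late lung, early lesion. Erbb2 was sparse everywhere, so no difference was detectable at this depth. The reads were placed on mm10, and whether RNA of the neu transgene was counted under Erbb2 was not tested. A list of 12 mammary luminal genes had 4 UMIs in the members of each lung, at 216 and 153 CPM, below free RNA at 2369 and 1747 CPM. A list of 8 basal genes had none in either lung, and a list of 8 immune genes had 0 and 2 UMIs.

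Pde5a, of the cyclic GMP pathway, and Ppp1r14a, placed on the same list of 12 genes, stood high in the same cells. Many others of the list had few or no UMIs. Pde5a, the phosphodiesterase that breaks down cyclic GMP, had 38 UMIs in 15 of 23 early lung members against 2 in other cells, and 31 in 12 of 25 late lung members against 23. Its ratios were 7.26 (5.61 to 10.66) and 4.30 (3.49 to 5.16). Ppp1r14a, an inhibitor of myosin phosphatase, had 41 UMIs in 14 members and 48 in 17, with ratios of 3.91 (3.19 to 4.68) and 4.25 (3.61 to 4.91). Of the 12 genes on the list, 6 had any UMI in early and 7 in late lung members. With enough counts were 2 in the early lung, Pde5a and Ppp1r14a, both at least 2-fold higher, and 6 in the late lung, 4 of them higher. The downstream kinase gene Prkg1 had only 2 and 3 UMIs in members, and Mrvi1, a target of that kinase, had none. Ednrb, a gene of the pericyte list, and the natriuretic peptide receptor gene Npr1 had 0 and 0, and 0 and 1, UMIs in members. Both are also expressed in lung endothelium.

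Among widely expressed relatives of the respiratory chain markers, Ndufa4 was low in the members and Cox4i1 was not. The markers themselves were chosen to be high. Ndufa4, the widely expressed relative of the marker Ndufa4l2, had 1 UMI over 23 early lung members against 154 in 80 of 162 other cells. In the late lung it had 3 UMIs in 2 of 25 members against 303 in 99 of 185 others. Its ratios were -3.37 (-9.26 to -1.45) and -2.56 (-5.06 to -1.22), and members stood at 53.9 and 114 CPM against 697 and 433 CPM in free RNA. Cells that met the corresponding rule for endothelial genes held Ndufa4 at 681 and 837 CPM, and those for alveolar type 1 genes at 964 and 864 CPM. After thinning to 500 UMIs, Ndufa4 was left in 4.35% and 4.0% of members against 32.7% and 35.1% of others; unthinned, members stood at 4.35% and 8.0% and others at 49.4% and 53.5%. Cox4i1, the widely expressed relative of the marker Cox4i2, stood by contrast at 1455 and 1068 CPM in members against 1097 and 918 CPM in others, with ratios of 0.43 (-0.23 to 0.99) and 0.24 (-0.39 to 0.78). Higd1a, the relative of Higd1b, had ratios of 2.01 (0.67 to 3.13) and 0.12 (-1.67 to 1.28). Cox7a2, Cox6a1 and Higd2a had ratios between -0.61 and 0.06 in both lungs, all with intervals that include 0. The members' mitochondrial share, 5.22% and 4.08%, was above that of the other cells, and its part in these values was not tested.

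**Figure D3:**
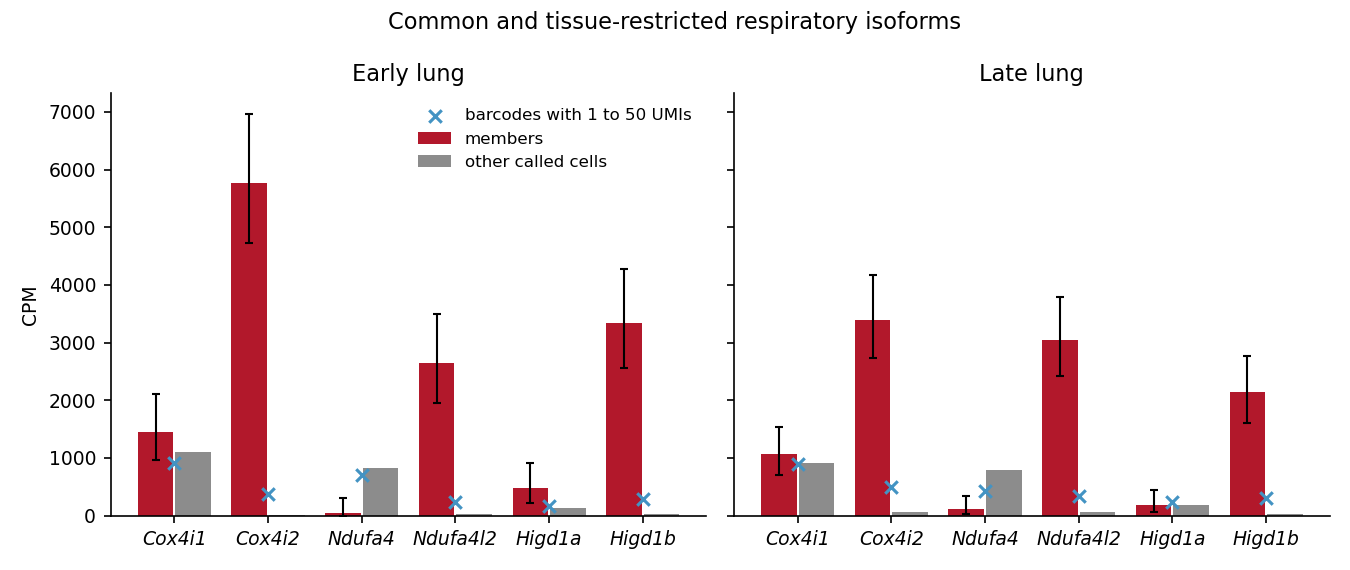
CPM of 3 pairs of related respiratory chain genes in each lung, members in red with 95% Poisson intervals, other called cells in grey and barcodes with 1 to 50 UMIs as crosses; the second gene of each pair is a rule marker. Ndufa4 is near 0 in members and not in other cells, whereas Cox4i1 is at a similar height in both.

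Ndufa4l2 is a known hypoxia target, and other hypoxia genes were examined for that reason. The list of 14 hypoxia and glycolysis genes stood at 1240 CPM (786 to 1860) in early and 2060 CPM (1548 to 2688) in late lung members, against 2080 and 2436 CPM in others. Of its genes with enough counts, 1 of 7 and 0 of 10 were at least 2-fold higher, and 3 and 1 lower. Vegfa, a hypoxia target made by alveolar type 1 cells, had 0 UMIs in members of both lungs against 87 and 167 in others, at least 2.91-fold and 3.78-fold lower against a floor of 3 counts in the members' sum. Epas1, which encodes the oxygen-regulated factor HIF-2α, had 37 UMIs in 16 early and 25 in 16 late lung members. Its ratios were 1.06 (0.49 to 1.56) and -0.61 (-1.27 to -0.06).

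Secreted proteins were among the genes that most separated members in both lungs. Spp1, which encodes the matrix phosphoprotein osteopontin, had 79 UMIs in 11 of 23 early lung members and 6 in the others, and 216 in 18 of 25 late lung members and 62 in the others. Its ratios were 6.93 (5.85 to 8.53) and 5.67 (5.27 to 6.11), and it varied from 0 to 19 and from 0 to 49 UMIs per member. Spp1 was therefore unevenly spread over the members. Fst, the activin-binding follistatin, had 28 and 30 UMIs in 10 and 9 members against 1 and 10 in others. Mfge8, a secreted bridge between cells and phosphatidylserine, had 47 and 62 UMIs in members, with ratios of 4.27 and 3.75.

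Other genes of the same kind were membrane, signalling and metabolic. Gap43, better known from growing axons, had ratios of 6.07 and 5.46. F2r, the thrombin receptor PAR1, had ratios of 3.32 and 4.0. Hsd11b1, which activates glucocorticoids, had ratios of 5.22 and 3.37, and Car2, a carbonic anhydrase, 3.04 and 3.53. Fermt2, the integrin activator kindlin-2, had 50 and 63 UMIs in 18 and 19 members, with ratios of 3.32 and 2.74. The remaining named genes were Nkain4, Maged2, Ifitm1, Itm2a, Crim1, Bgn and Tmsb10, with ratios from 2.18 to 5.35 in the early and 2.27 to 5.63 in the late lung. Of 1413 genes with enough counts in both lungs, marker, mitochondrial and ribosomal genes left out, 109 were at least 2-fold higher in both. This is 47.4% of the 230 higher in the early and 42.9% of the 254 higher in the late lung. Lower in both were 219, of 400 lower in the early and 338 lower in the late lung, and 39 were counted as opposite. Over all genes tested in the early lung, 16% were higher. In the late lung the number of higher genes over all 3376 genes tested was 676 (20%), and 369 of 1909 without cells above 10000 UMIs.

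**Figure D4:**
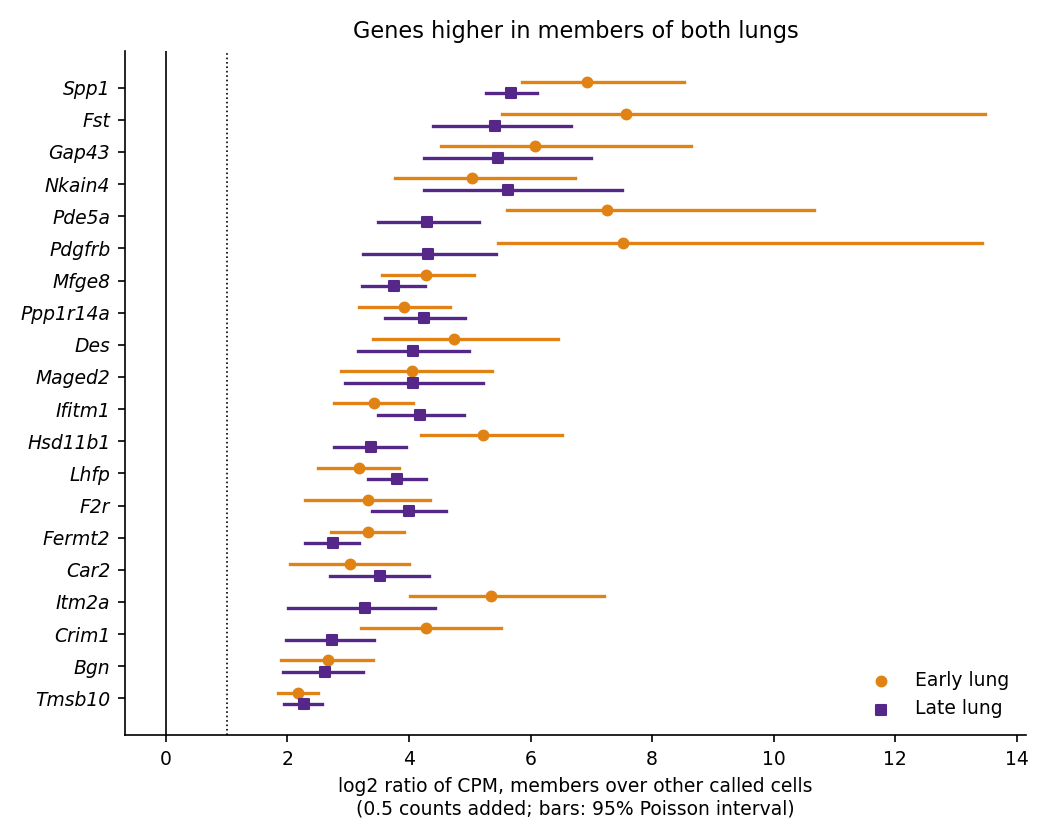
Log2 ratio of CPM, members over other called cells, for 20 genes higher in members of both lungs, with 95% Poisson intervals; the dotted line marks 2-fold. All 40 intervals lie above the dotted line, and those of Fst, Pdgfrb and Pde5a in the early lung are wide because the other cells held 1 or 2 UMIs.

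Of 18 listed channels and receptors of mural cells, 5 had any UMI in the members of each lung. With enough counts there were 0 in the early lung and 2 in the late lung, of which 1 was at least 2-fold higher. Kcnk3, the potassium channel TASK-1 of the pulmonary vessels, had 13 UMIs in 6 early lung members against 2 in others, and 13 in 8 late lung members against 10. S1pr3, a sphingosine phosphate receptor, had 8 and 12 UMIs against 1 and 2. Agtr1a, the angiotensin receptor, had 4 and 6 against 0 and 3. The whole list of 18 genes stood at 1455 CPM (959 to 2117) and 1297 CPM (898 to 1813) against 162 and 236 CPM in others. Free RNA held it at 197 and 229 CPM. Kcna5, Kcnmb1 and Cacna1c, channels of arterial smooth muscle, had 0 UMIs in the members of both lungs.

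Some transcription factors of lung mesenchyme were found in the members. Tbx2 had 19 UMIs in 9 early and 13 in 8 late lung members, with ratios of 5.14 (3.78 to 7.02) and 2.33 (1.27 to 3.23). Tbx4 had 6 and 9 UMIs against 0 and 6 in others, and Tbx5 8 and 4 against 0 and 7. Nr2f2, the vascular factor COUP-TFII, had 7 and 19 UMIs, with ratios of 2.47 and 4.41, and its relative Nr2f1 6 and 3 against 0 and 1. Foxf1, which is high in lung endothelium, had ratios of 0.05 and -2.38. The brain and kidney mural factors Foxd1, Zic1 and Foxs1 had 0 UMIs in lung members. Of 24 factors listed, 12 had any UMI in the members of each lung. Among factors with enough counts, 3 of 6 in the early and 5 of 9 in the late lung were at least 2-fold higher. At least 2-fold lower were 0 and 2.

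The members held basement membrane genes above the other cells. Col4a1 and Col4a2, the chains of type IV collagen, had ratios of 3.76 (2.92 to 4.63) and 3.04 (2.05 to 4.0) in the early lung and 1.90 (1.17 to 2.54) and 2.09 (1.33 to 2.75) in the late lung. Hspg2, the proteoglycan perlecan, had 11 and 7 UMIs against 14 and 11 in others. Igfbp7 and Mgp, both secreted vessel wall proteins, were lower in members, with ratios of -2.15 and -2.19, and -3.17 and -3.49. Sparc was the most abundant gene of this list in counts, with 89 and 99 UMIs in 19 members of each lung and ratios of 0.95 and 0.56. The list of 26 genes had 4 of 9 and 6 of 12 at least 2-fold higher and 2 lower in each lung.

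The list of 24 genes of PDGF, Notch and TGF-beta signalling, which leaves out Pdgfrb and Notch3, had a sum ratio of 0.40 (-0.01 to 0.78) in the early lung, an interval that includes 0, and of -0.93 (-1.35 to -0.57) in the late lung. It stood at 3342 CPM (2562 to 4284) against 2544 CPM in others in the early lung and at 2213 CPM (1680 to 2861) against 4261 CPM in the late lung. In it, 1 of 8 was at least 2-fold higher and 3 lower in the early lung, and 0 of 17 higher and 11 lower in the late lung. Hes1, a Notch target, had 1 UMI in each lung, and the BMP receptor gene Bmpr2 had 0 and 3 against 55 and 215 in others. Cav1, the main protein of caveolae, had 1 and 2 UMIs in members against 211 and 424 in others, with ratios of -3.82 (-9.71 to -1.91) and -3.53 (-6.90 to -1.99). Its partner Sdpr (cavin-2) had ratios of -3.95 and -1.85. The other genes lowest in early lung members were mostly epithelial: Scgb1a1, Scgb3a2, Prdx6, Igfbp2, Sec14l3, Mal2, Cbr2 and Clic3. In the late lung they included the hemoglobin genes Hbb-bs, Hbb-bt and Hba-a1, and Tspan7, Tspan13, Scgb3a1 and Wfdc18, with 0 to 9 UMIs in members against 330 to 2560 in others.

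Malat1, a long RNA kept in the nucleus, was almost wholly missing from the lung members. It had 227 UMIs in early lung members, of which 225 lay in the cell with the most marker UMIs, and 439 in late lung members, of which 435 lay in 1 cell of 2589 UMIs. It was found in 3 of 23 and 4 of 25 members, against 11 of 162 and 43 of 185 other lung cells and 5 of 8 early lesion members. Its absence was thus shared by most called cells of both lungs. Whether the barcodes without it held whole cells was not tested.

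Late and early lung members were alike in most genes counted. The question is which genes of these cells differ between older mice with primary tumors and younger mice without a palpable tumor. Age, tumor status and library cannot be told apart here, and 1 library per stage gives values only. Of 387 genes with at least 20 counts over both member sums, 7.49% were at least 2-fold higher and 6.46% at least 2-fold lower in the late lung (29 and 25 genes, and 40 and 19 after scaling by the median ratio). With added counts in proportion to the totals the higher share was 8.01%. The pericyte list stood at a late over early log2 ratio of -0.21 (-0.51 to 0.08), with 0 of 7 genes at least 2-fold higher and 1 lower, and its median was -0.50 beside -0.09 for all genes tested. The cyclic GMP list stood at -0.37 (-0.80 to 0.06) and the contractile list at -0.02 (-0.35 to 0.31). The contractile value leans on the smooth muscle gene-rich cell, which held 64 of the list's 185 late lung UMIs. Without it 121 remained, against 133 in the early lung, and the ratio was not taken without it. Higher in the late lung as sums were the adhesion and cytoskeleton list, at 0.62 (0.21 to 1.06) with 1 of 2 genes at least 2-fold higher, the cell cycle list, at 0.88 (0.26 to 1.56) with 0 of 2, and the hypoxia list, at 0.72 (0.0042 to 1.5) with 0 of 1. Red cell genes were higher by 1.74 (0.11 to 4.34), from 16 UMIs of which 15 lay in 1 cell. Lower as sums, with intervals that exclude 0, were the basement membrane list, at -0.30 (-0.56 to -0.04), the PDGF, Notch and TGF-beta list, at -0.59 (-1.14 to -0.05), and the endothelial list, at -0.83 (-1.62 to -0.06). The 6 rule markers stood at -0.35 (-0.55 to -0.15), but they chose these cells, so that value is a description only.

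Several of the largest late over early differences lay in 1 cell each. Pf4, a platelet chemokine, had 24 UMIs in the late lung and all lay in 1 member, which also held 18 of 24 Ctla2a and 14 of 18 Cd9 UMIs and 9 Hba-a1 UMIs. That cell met the rule through 3 UMIs of Gucy1b3 alone. All 18 Acta2 UMIs lay in the smooth muscle gene-rich cell already described. Without the first cell the Pf4 log2 ratio went from 5.12 to -0.45, and without the second that of Acta2 went from 2.39 to -2.75. Tsc22d1, a leucine zipper factor, was between: 29 of its 63 late UMIs lay in the Pf4 cell, it was in 16 of 25 late and 9 of 23 early members, and its ratio went from 1.54 to 0.70 without that cell.

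Differences spread over more cells were smaller in number. Hspa5, the endoplasmic reticulum chaperone BiP, had 6 UMIs in 4 of 23 early and 34 in 17 of 25 late lung members, with no more than 4 in any cell. Its late over early ratio was 1.91 (0.74 to 3.55). Lamp2, a lysosome membrane protein, had 2 UMIs in 1 and 20 in 11 members, with a ratio of 2.54 (0.78 to 5.96). Spp1, already described, had a ratio of 0.95 (0.57 to 1.34). Lower in the late lung was Fam162b, a pericyte list gene of uncertain function, with 33 UMIs in 12 early and 10 in 4 late members and a ratio of -2.17 (-3.41 to -1.17). Itm2a, Cald1, App and Oaz2 had ratios between -1.47 and -1.02. Pdzd2 had 47 and 18 UMIs, and 20 of the 47 lay in 1 early cell. The depth of late members was greater, with a median of 817 against 655 UMIs, and its part in these values was not tested.

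The 8 early lesion members were not 1 kind of cell. Of the 8, 5 held only Postn among the markers, while the remaining 3 held between 2 and 4 marker genes. These 3, numbered 1, 4 and 5 by decreasing marker UMIs, held 21, 25 and 13 UMIs of Rgs5, 7, 1 and 2 of Kcnj8, and 2, 3 and 2 of Pdgfrb. They held 45, 42 and 31 UMIs of the 20 pericyte genes, against 0 or 1 in the other 5. Rgs5 had 5 UMIs in all 1310 other lesion cells. The first 2 also held 24 and 20 UMIs of Fabp4, a fatty acid carrier of capillary and fat cells. Cell 5 held 25 UMIs of Igfbp7, 23 of Ccl19, a chemokine for T cells, 8 of Tagln, 6 of Des and 3 of Acta2.

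The Postn-only cells fell into 3 further patterns. Cells 2 and 6 held 2 and 6 UMIs of Krt5, 2 and 4 of Krt14, 2 and 4 of the oxytocin receptor gene Oxtr, 6 and 17 of Myh11 and 2 and 22 of Acta2, genes known from the contractile basal cells of the mammary gland. Their mitochondrial shares, 19.4% and 16.0%, were the highest of the 8. Cell 3 held 33 UMIs of Dcn, 25 of Lum, 42 of Col3a1 and 13 of Col1a1, matrix genes of fibroblasts. Cells 7 and 8 held 73 and 12 UMIs of Cxcl13, a chemokine that attracts B cells, 34 and 32 of Clu and 20 and 18 of Mfge8. They held 0 UMIs of Rgs5, Acta2, Krt5 and Dcn. Without Postn among the markers the rule kept 3 lesion cells, 23 early and 24 late lung cells.

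**Figure D5:**
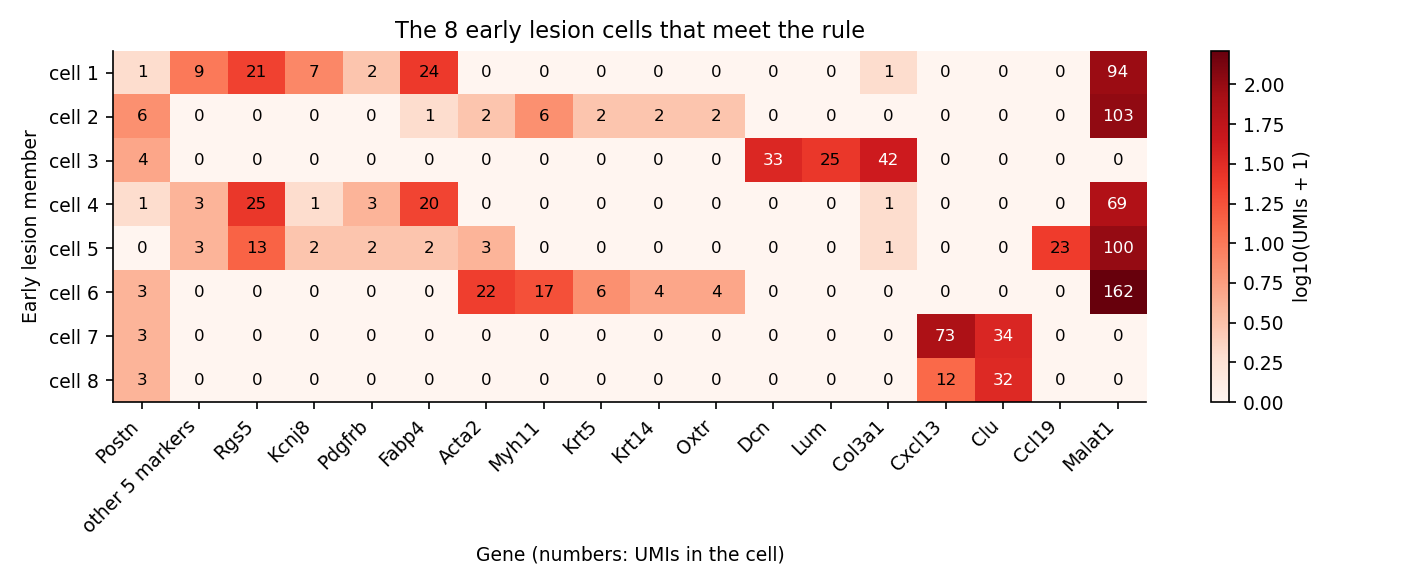
UMIs of 17 genes and of the 5 markers other than Postn summed, in each of the 8 early lesion members, with colour on a log10(UMIs + 1) scale. Cells 1, 4 and 5 hold Rgs5, cells 2 and 6 keratin and contractile genes, cell 3 Dcn, Lum and Col3a1, and cells 7 and 8 Cxcl13 and Clu.

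Because of this mixture, sums over the 8 lesion cells are averages of unlike cells. Milk protein RNA was in all 8, from 5 to 152 UMIs per cell, in a library whose free RNA was rich in it. The milk genes Csn2, Wfdc18, Csn1s1, Csn1s2a and Csn3 had 23 to 178 UMIs in members and 39637 to 217706 in the others. Over 8247 genes tested, 58.8% came out at least 2-fold higher and 6.8% lower, with a median log2 ratio of 1.34. This follows from adding 0.5 counts to sums of 14160 and 3912287 UMIs. With the added counts in proportion to the totals, 24% were higher and 61% lower, so no count of genes is drawn from this comparison. Sums with many member UMIs do not rest on it: Rgs5 (59 UMIs against 5), Sparc (54 against 200), Col3a1 (45 against 41, of which 42 in cell 3), Igfbp7 (35 against 153, of which 25 in cell 5) and Cald1 (28 against 93).

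Against the early lung members, the lesion members held most of the genes that led in the lungs at lower levels. Of 270 genes with at least 20 counts, 17.8% were at least 2-fold higher and 29.6% at least 2-fold lower in the lesion members. Of the 20 genes higher in members of both lungs, 15 had at least 1 UMI in lesion members; of the 17 with enough counts, 15 were at least 2-fold lower and 0 higher. The exceptions were Mfge8, with 59 UMIs against 47 and a log2 ratio of 0.71 (0.14 to 1.30), and Des, with 7 against 17. The 20 genes had been chosen for high values in the same early lung members. Lower values in the lesion were therefore partly fixed by that choice, and the count of 15 is a description only. Each of the 17 except Des also reached the count minimum through the early lung members alone. Fst, Gap43, Nkain4, Hsd11b1 and Fam162b had 28, 23, 21, 35 and 33 UMIs in early lung members and 0 in lesion members, at least 7.12-fold lower for Fst and 5.85-fold for Gap43 against a floor of 3 counts. Kcnk3 and Tbx2 also had 0. Gucy1b3 had 0 against 56, but it is a rule marker, so its counts helped to choose the cells. In the opposite direction Rgs5 had 59 UMIs against 7 and Fabp4 47 against 0. All lesion values come from 8 cells of 1 gland library, and tissue, library and depth cannot be told apart here. The sum of the pericyte list had a log2 ratio of -0.18 (-0.53 to 0.16), but nearly all of its 120 lesion UMIs lay in cells 1, 4 and 5, and 59 were of Rgs5. Of its genes with enough counts, 1 of 5 was at least 2-fold higher and 3 lower, with a median of -1.48 beside -0.17 for all genes tested.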

How the data were processed

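Single-cell RNA libraries made with the 10x Chromium 3' v2 kit were analysed. The deposited files hold counts made by the authors, whole-number UMI counts per gene and barcode for all 737280 barcodes of the kit and 27998 genes. Per the submitters' processing notes the reads were placed on mm10; which aligner and counter were used is not given in the sources used here. Libraries held 743765 (early lung), 1070236 (late lung), 6366768 (early lesion) and 3403140 (primary tumor) UMIs.

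Members were found by the rule in the report. Counts were summed over cells per library and scaled to CPM; 0.5 counts were added to each sum for ratios, with exact Poisson intervals, and exact Clopper-Pearson intervals were used for shares. UMI intervals leave out the spread between cells. Doublets were kept and no caller was run. The members and the gene lists were chosen with earlier results of these data known. Besides list genes, named genes were those with interval bounds farthest from a ratio of 1: 20 higher in both lungs, 15 higher in the lesion, 10 lower per library, and 10 in each direction between member groups, without marker, mitochondrial, ribosomal and predicted genes. Malat1 was described by cell after its values were seen. Positions came from GENCODE M21, and promoters and newer gene names from RefSeq GRCm38.p6. The ratio was tested on simulated data. Python 3.11.15, numpy 2.4.6, scipy 1.17.1 and pandas 2.3.3 were used.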

Additional observations from a re-analysis of the deposited data

Results flagged for a closer look

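Barcodes too shallow to be called cells, with at least 100 but under 500 UMIs, also met the marker conditions of the rule: 79 of 1136 early lung barcodes (6.95%) and 78 of 1229 late lung ones (6.35%), against 0 of 2140 in the early lesion and 0 of 2800 in the primary tumor. These barcodes were in no comparison.

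The other flags are genes whose log2 ratio of members over other cells was at least 2-fold in opposite directions in a lung and in the early lesion, with both intervals excluding 0; the differences between libraries were not tested, and the lesion values rest on 8 unlike cells set against mammary cells. Lower in lung members and higher in lesion members were Igfbp7 (-2.15 for the early and -2.19 for the late lung, 6.0 for the lesion), Cav1 (-3.82, -3.53 and 4.88), Sdpr (-3.95, -1.85 and 4.55), Mgp (-3.17, -3.49 and 2.66), Pmp22 (-2.56, -1.95 and 6.62), Jun (-3.96, -2.94 and 1.5) and Ier3 (-3.76, -2.07 and 2.45). Jun and Ier3 had 0 UMIs in early lung members, so their values there depend on the 0.5 counts added. Dcn (-3.16 and 6.88), Gsn (-1.40 and 8.35) and Ptrf (-1.71 and 6.58) were opposite between the early lung and the lesion only. Spp1 (6.93, 5.67 and -1.36) and Car2 (3.04, 3.53 and -2.87) were higher in lung members and lower in lesion members, where the other cells held 14491 Spp1 and 3039 Car2 UMIs. Hmgb2 was 2.59 in the late lung and -2.98 in the lesion.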

How the results depend on the processing

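No paired analysis was possible because every group has 1 library. The number of members was 13, 11 and 6 (early lung, late lung, lesion) when no endothelial or alveolar type 1 UMI was allowed, and 3, 8 and 6 at a UMI minimum of 1000; the lesion kept 2 at 5 marker UMIs and 3 without Postn. The other settings left each number inside its counting interval.

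Counts of genes followed the filter and the added counts. For members against others, the higher and lower counts were 266 and 434 in the early lung; they were 70 and 169 at 50 counts, 4275 and 1029 at 1 count and 732 and 48 with 5 counts added, and 168 were higher at the UMI minimum of 1000. The late lung counts, 676 and 895, were 181 and 353 at 50 counts, 2225 and 81 with 5 counts added and 369 and 447 without cells over 10000 UMIs; 6166 were higher at 1 count, and 572 lower without endothelial or alveolar UMIs. The lesion counts, 4852 and 561, were 1907 and 2183 under median-ratio scaling, 7780 and 41 with 5 counts added and 1980 and 5030 with proportional added counts, a setting chosen after seeing the data; 2305 were higher at 50 counts and 10589 at 1 count, and 230 lower at 5 marker UMIs, 268 without Postn and 355 at 10% mitochondrial UMIs. For late over early lung members, 29 and 25 became 11 and 14 without endothelial or alveolar UMIs, 3 and 6 at 50 counts and 2643 and 1921 at 1 count; 12 were higher with 5 counts added and 15 lower at the UMI minimum of 1000. For lesion over early lung members, 48 and 80 became 14 and 20 at 50 counts and 2413 and 2336 at 1 count; 17 were higher at 5 marker UMIs and 21 without Postn, and 34 and 16 lower without endothelial or alveolar UMIs and at the UMI minimum of 1000. Fewer genes or cells enter under the stricter settings; beyond that the cause was not tested.

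Single genes that changed sign were late over early values resting on 1 cell each. Pf4 was -0.38 at 5 marker UMIs, -0.22 without endothelial or alveolar UMIs, -1.52 at the UMI minimum of 1000 and -0.45 without its cell. Ctla2a was -0.22 without endothelial or alveolar UMIs, and Cd9 was -0.38 at 5 marker UMIs. Acta2 was -2.71 at 5 marker UMIs, -2.75 without Postn or without its cell and -1.81 without endothelial or alveolar UMIs. Leaving out either late lung cell was chosen after seeing the data. None of the 20 genes higher in members of both lungs changed sign under any setting. Depth limits every value: the 23 and 25 lung members hold 18552 and 26208 UMIs, 9.11% and 6.36% of the UMIs of called cells.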

Other observations

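Immediate early genes were low in the lung members. The list of 18 genes, which respond to dissociation and to growth signals, stood at 1940 CPM (1359 to 2686) in early and 1374 CPM (962 to 1902) in late lung members, against 3311 and 4538 CPM in others and 2895 and 3165 CPM in free RNA. Of its genes with enough counts, 5 of 9 and 11 of 15 were at least 2-fold lower, and 1 and 0 higher. Jun had 0 and 2 UMIs in members against 77 and 282 in the other lung cells. The list of 15 cell cycle genes stood at 1563 and 2900 CPM against 1437 and 2224 CPM in others, with 0 of 5 and 2 of 8 genes at least 2-fold higher and 3 lower in each lung.

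Markers of further cell types were few. Red cell genes had 3 and 16 UMIs in early and late lung members, and 15 of the 16 lay in 1 cell. Mesothelial genes had 0 and 1 UMIs, and Schwann and adipocyte genes 1 and 0. In the early lesion, the Schwann and adipocyte list had 47 UMIs in 4 members, equal to the 47 UMIs of Fabp4.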
